A study of Mus musculus with 40 samples.

Results

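A set of 9 genes that mark glutamatergic neurons of the cortex and related forebrain regions was followed through D1 receptor pulldown libraries of the mouse accumbens nucleus. They were chosen by name from the deposited counts: Slc17a7, Slc17a6, Slc30a3, Neurod2, Neurod6, Tbr1, Emx1, Rorb and Cux2, 9 of 32531 gene symbols listed per library. All 9 had a row in every library. Every mouse group carried the Drd1-EGFP/Rpl10a transgene of line CP73, in which the D1 dopamine receptor promoter drives a ribosomal protein fused to EGFP, so that ribosome-bound RNA can be pulled down with the tag. The labels give adult mice on a mixed FVB/N, Swiss Webster and C57BL/6 background. Mice worked for intravenous saline or cocaine in long-access sessions, and cocaine mice form a nonescalating and an escalating group. Tissue was taken 24 hours after self-administration (6 saline, 9 nonescalating and 5 escalating libraries) or approximately 1 month after it (5 saline, 10 nonescalating and 4 escalating libraries). One further nonescalating 1-month library, 1595, held 5168 counts in all and 3 counts in these genes, and was left out.

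Glutamatergic projection neurons load glutamate into synaptic vesicles with vesicular glutamate transporters, and the cortical form, the product of Slc17a7, is also the form found in the axon terminals that the cortex sends to the striatum. The accumbens itself is built mainly of GABAergic medium spiny neurons, whose cell bodies do not belong to this class, while the cell bodies of its glutamatergic inputs lie elsewhere. The D1 receptor gene is active in some cortical neurons of the deep layers as well as in direct pathway medium spiny neurons, so the promoter of the transgene does not restrict it to the striatum. The transcription factors Neurod2, Neurod6 and Tbr1 act in young and mature cortical projection neurons, Emx1 is a homeobox gene of the dorsal forebrain, and Rorb and Cux2 are known as genes of the middle and upper cortical layers.

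The sequences just before the start sites are shown for 3 genes that varied together between the libraries. They are the 250 bases before the RefSeq start, read 5′ to 3′ on the strand of the gene (GRCm38.p6). Capitals mark CAGATG, an E-box form that NeuroD factors are known to bind.
Slc17a7: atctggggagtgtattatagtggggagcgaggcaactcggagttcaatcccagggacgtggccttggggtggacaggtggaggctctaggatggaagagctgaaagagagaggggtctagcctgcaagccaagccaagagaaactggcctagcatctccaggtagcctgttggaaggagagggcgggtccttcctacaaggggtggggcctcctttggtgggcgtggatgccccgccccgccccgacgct
Neurod2: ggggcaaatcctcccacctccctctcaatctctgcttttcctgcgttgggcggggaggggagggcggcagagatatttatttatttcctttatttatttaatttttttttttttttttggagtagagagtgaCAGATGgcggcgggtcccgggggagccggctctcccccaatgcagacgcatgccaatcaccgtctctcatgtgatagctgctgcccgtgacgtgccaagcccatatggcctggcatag
Neurod6: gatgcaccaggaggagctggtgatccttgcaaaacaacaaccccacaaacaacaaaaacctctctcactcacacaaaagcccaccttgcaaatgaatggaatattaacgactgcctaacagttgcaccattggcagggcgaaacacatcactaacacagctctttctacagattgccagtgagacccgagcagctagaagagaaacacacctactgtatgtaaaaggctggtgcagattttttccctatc
The Slc17a7 window is chr7:45163671-45163920 on the plus strand, the Neurod2 window chr11:98329646-98329895 on the minus strand and the Neurod6 window chr6:55681264-55681513 on the minus strand. CAGATG was searched on both strands and was found in the Neurod2 window, starting 118 bases before the start, and not in the Slc17a7 and Neurod6 windows shown. It was present in 3 of the 13 windows that RefSeq starts of the 9 genes gave, and in 14.4% of 32851 such windows of the genome. A match of these letters is a description of the window and not a binding site.

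Depth and composition varied between libraries. The 39 libraries held 3.77 M to 33.9 M gene counts, and 11375 to 17986 genes had at least 1 count. Reads outside annotated features made up 18.7% to 70.3% of a library. The saline 24-hour libraries 1573 and 1574 and the nonescalating 24-hour library 1582 stood apart: 1573 had the largest share of reads outside features and the lowest Drd1 level, and 1574 and 1582 had the fewest genes with a count. Drd1, the gene whose promoter drives the transgene, lay between 130 and 649 CPM with a median of 499.8, where CPM is counts-per-million with TMM scaling. The labels do not say whether libraries come from separate animals, and replicate numbers repeat within the nonescalating groups, so n counts libraries and p-values measure the spread between them. In bulk libraries, fewer cells of a type and less RNA per cell cannot be told apart.

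Slc17a7, the vesicular glutamate transporter of cortical neurons (chr7:45163949-45176142), was counted in all 39 libraries and spanned 0.110 to 251 CPM around a median of 17.4. At 24 hours it lay between 0.217 and 251 CPM in the saline libraries (median 26.8) and between 0.110 and 173 CPM in the nonescalating libraries (median 67.5). The 5 escalating libraries held 0.483, 5.70, 7.54, 14.5 and 25.9 CPM. Libraries of the same group thus differed far more than the group medians did, and all groups overlapped. At 1 month the saline libraries held 7.36, 11.7, 43.9, 49.7 and 66.5 CPM. The 10 nonescalating libraries lay between 0.147 and 96.9 CPM with a median of 30.3. The escalating libraries held 0.472, 6.47, 19.9 and 44.9 CPM. A level under 1 CPM occurred in 7 libraries, spread over 5 of the 6 groups, and a level of 50 CPM or more in 12 libraries, none of them escalating.

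**Figure D1:**
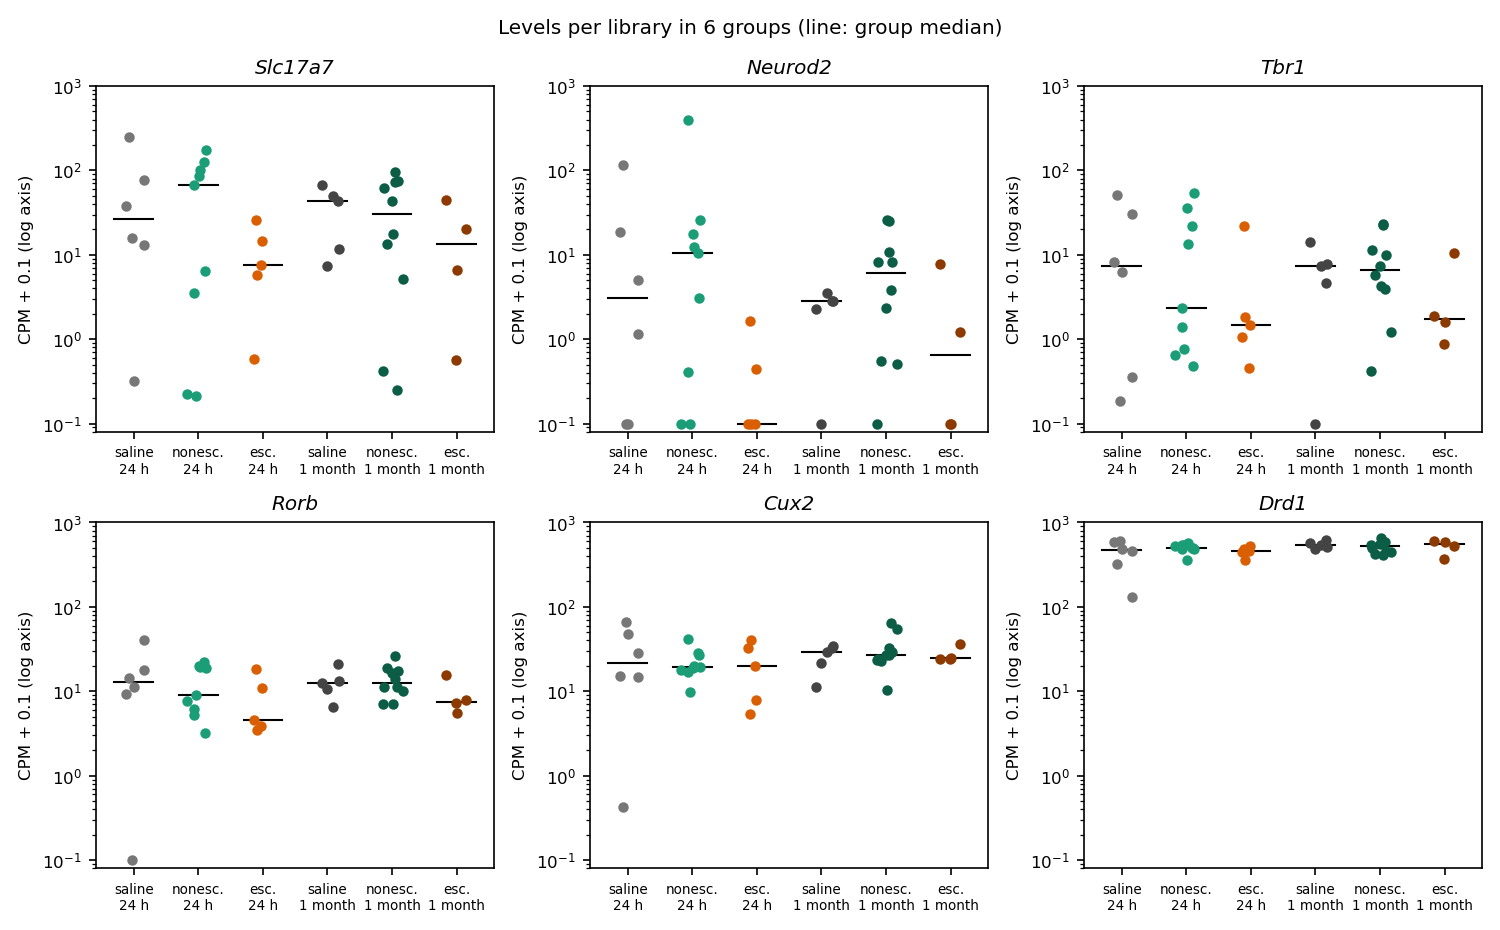
Levels of 5 of the genes and of Drd1 in each of the 39 libraries, as CPM + 0.1 on a log axis, with 1 point per library and a line at the group median. Slc17a7 runs from 0.110 to 251 CPM and Neurod2 from 0 to 400.5 CPM, while Drd1 stays between 130 and 649 CPM.

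Slc30a3, which loads zinc into glutamatergic vesicles (chr5:31086106-31108237), was counted in 14 of 39 libraries. The saline 24-hour library 1574 held 32.6 CPM, which was 62.1% of its CPM summed over all libraries, and the next highest library held 5.78 CPM. All 5 escalating 24-hour libraries were at 0, as were 3 of 6 saline and 5 of 9 nonescalating libraries at that time. Its span overlaps Dnajc5g on the other strand, and the strand setting of the counting is not given in the sources used here. Slc17a6, the vesicular glutamate transporter best known from thalamus and other subcortical regions (chr7:51622006-51671119), was counted in 32 libraries and reached 4.03 CPM at most. Its group medians ran from 0.118 CPM in the escalating 24-hour libraries to 2.10 CPM in the escalating 1-month libraries, and all groups overlapped.

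Neurod2, a basic helix-loop-helix factor of cortical projection neurons (chr11:98325415-98329648), was at 0 in 11 libraries and reached 400.5 CPM in the nonescalating 24-hour library 1582. That library alone made up 55.9% of its summed CPM, and Slc17a7 was at 67.5 CPM there. At 24 hours the saline libraries ran from 0 to 115 CPM (median 2.95) and the nonescalating libraries from 0 to 400.5 CPM (median 10.3). In the escalating libraries Neurod2 was at 0 in 3 libraries and at 0.345 and 1.56 CPM in the other two. At 1 month the saline libraries held 0, 2.20, 2.76, 2.77 and 3.42 CPM. The nonescalating libraries ran from 0 to 26.0 CPM (median 5.94), and the escalating libraries held 0, 0, 1.11 and 7.64 CPM. Escalating libraries therefore lay at the low end at 24 hours, inside the range of the other groups.

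Neurod6, a related factor (chr6:55677822-55681263), was at 0 in 14 libraries and reached 15.9 CPM. Its median was 0 in the escalating 24-hour libraries and 1.62 CPM in the nonescalating 1-month libraries, the lowest and the highest of the 6. Tbr1, a T-box factor of early-born and deep-layer neurons (chr2:61802930-61814114), was counted in 38 libraries. The saline 24-hour libraries ran from 0.0869 to 50.6 CPM (median 7.17) and the nonescalating ones from 0.384 to 53.3 CPM (median 2.26), while the escalating libraries held 0.353, 0.967, 1.38, 1.75 and 22.0 CPM. A single escalating library, 1588, thus lay far above the other 4. At 1 month the saline libraries held 0, 4.58, 7.27, 7.60 and 14.05 CPM, the nonescalating ones ran from 0.320 to 22.8 CPM (median 6.44), and the escalating ones held 0.787, 1.50, 1.79 and 10.3 CPM. Emx1 (chr6:85187438-85204462) was counted in 7 of 39 libraries, never above 1.24 CPM, and was at 0 in all 9 escalating libraries.

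Rorb and Cux2 behaved in another way. Rorb, a nuclear receptor known from layer 4 (chr19:18930605-19111196), was counted in 38 libraries with a median of 11.1 CPM, and its 5 highest libraries held 26.9% of its summed CPM, against 45.3% for Slc17a7 and 82.7% for Neurod2. Cux2, a homeobox factor of upper-layer neurons (chr5:121856366-122050102), was counted in all 39 libraries with a median of 24.3 CPM and group medians between 19.4 and 28.9 CPM. Its lowest library was 1574, at 0.324 CPM, the library with the highest Slc17a7. Cux2 overlaps the antisense genes Gm15637 and Gm3970, whose reads may not be separable from its own.

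**Figure D2:**
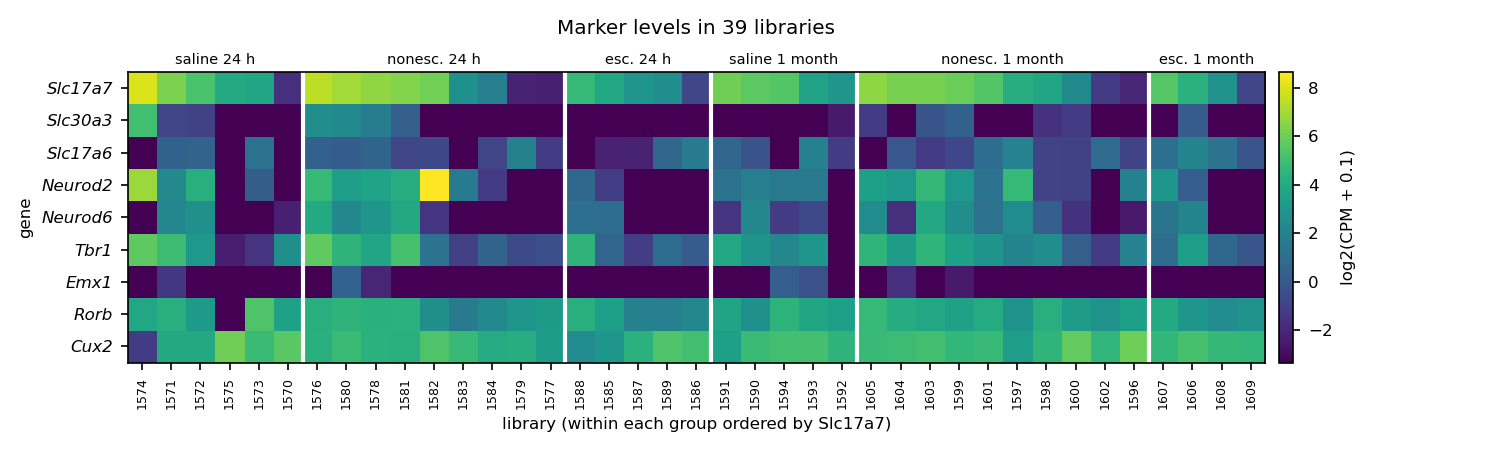
Heat map of log2(CPM + 0.1) for the 9 genes (rows) in 39 libraries (columns, numbered as in the labels), grouped by treatment and time and ordered within each group from the highest to the lowest Slc17a7, with bright colours for high levels. Neurod2, Neurod6 and Tbr1 tend to darken with Slc17a7, whereas Cux2 stays bright in all but library 1574, at 0.324 CPM.

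Together the 9 genes summed to 19.9 to 518 CPM per library, with group medians of 90.9 (saline), 178 (nonescalating) and 41.3 CPM (escalating) at 24 hours and 101, 91.7 and 62.4 CPM at 1 month. Per kilobase of annotated exon the median level was 3.23 CPM for Slc17a7, 2.41 for Cux2, 1.00 for Rorb, 0.834 for Tbr1 and 0.713 for Neurod2. Slc17a7 was the highest of the 9 per kilobase in 20 libraries, Cux2 in 16, Neurod2 in 2 and Rorb in 1. In the 7 libraries with Slc17a7 under 1 CPM, Neurod2 was at 0 in 6, Neurod6 in 5, and Emx1 and Slc30a3 in all 7. In the other 32 libraries Neurod2 was at 0 in 5, Neurod6 in 9, Emx1 in 25 and Slc30a3 in 18. Emx1 and Slc30a3 were thus absent from most of those libraries as well. Tbr1 was counted in all of the 7, and Slc17a6 was at 0 in 1 of them. Cux2 lay between 9.76 and 63.9 CPM in the 7, Rorb between 4.51 and 11.3 CPM and Drd1 between 372 and 591 CPM. The exception for Neurod2 was the nonescalating 1-month library 1596, with 51 Neurod2 counts beside 2 Slc17a7 counts.

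The spread between libraries of a group, as edgeR estimated it over the 39 libraries, was a biological coefficient of variation of 2.07 for Neurod2, 1.92 for Neurod6, 1.40 for Slc17a7 and 1.28 for Tbr1. The trend over all genes at the same level was 0.632, 1.21, 0.476 and 0.788. For Rorb the estimate was 0.716 beside a trend of 0.730, and for Cux2 it was 0.618 beside 0.558. For Slc17a6 it was 1.33 beside 1.52. The estimate lay above the trend for Slc17a7, Neurod2, Neurod6 and Tbr1, and also for Slc30a3 (2.21 beside 1.49). Rorb, Cux2 and Slc17a6 lay near or below it. By rank of the coefficient alone, Slc17a6 (percentile 79.5) lay between Slc17a7 (81.4) and Tbr1 (77.9). Neurod2 was at 95.8, Neurod6 at 93.5, Rorb at 52.0 and Cux2 at 44.3. The genes were chosen with earlier results of these data known. A high spread in the same libraries is thus a description and not an independent test. The share of all genes above the trend is not given here.

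Pairs of genes were compared over the 39 libraries on log2 CPM. The 5 genes counted in at least 30 libraries gave 10 pairs, with p-values from 100000 permutations adjusted over them. Slc17a7 and Tbr1 varied together (Spearman rho 0.78, p 1e-05, the smallest these permutations can give, adjusted p 0.0001, and Pearson r 0.66, p 4e-05, adjusted p 0.0004). For each pair, the 2 libraries left out were those farthest from the median of the gene named first. Without them r was 0.63 for Slc17a7 and Tbr1, and rho was 0.71 within 24 hours and 0.81 within 1 month. Slc17a7 and Rorb had rho 0.58 (p 0.00012, adjusted p 0.0004) and r 0.32 (p 0.0478, adjusted p 0.120, r 0.34 without the 2 libraries), and rho 0.56 within 24 hours and 0.54 within 1 month, where the adjusted p was 0.0922. Tbr1 and Rorb had rho 0.61 (p 6e-05, adjusted p 0.0003) and r 0.55 (p 0.0001, adjusted p 0.0005, r 0.56 without the 2 libraries), with rho 0.61 within 24 hours and 0.46 within 1 month, where the adjusted p was 0.150. No other of the 10 pairs passed an adjusted p of 0.05, and Slc17a7 with Cux2 had rho -0.18 (p 0.274, adjusted p 0.527) and r -0.27 (p 0.102, adjusted p 0.170, r -0.38 without the 2 libraries). With 7 genes counted in at least 20 libraries, a choice made after seeing the data, 21 pairs were compared. Slc17a7 and Neurod2 then had rho 0.80 (p 1e-05, adjusted p 3.5e-05) and r 0.74 (p 1e-05, adjusted p 7e-05, r 0.72 without the 2 libraries).

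**Figure D3:**
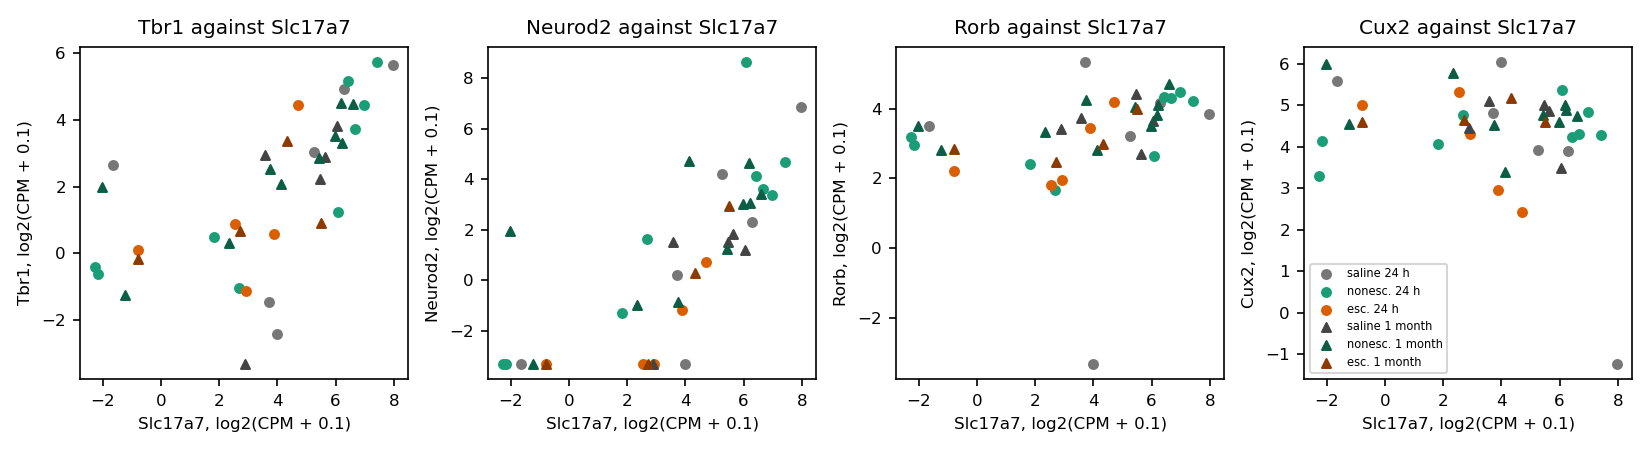
Tbr1, Neurod2, Rorb and Cux2 against Slc17a7 on log2(CPM + 0.1) axes, 1 point per library (circles 24 hours, triangles 1 month, colours by treatment). Tbr1 and Neurod2 climb with Slc17a7 (rho 0.78 and 0.80), and Cux2 does not (rho -0.18).

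The summed level of the 9 genes was set against 16 measures of the same libraries. The 2 libraries left out were those farthest from the median of each measure in turn. By rank it followed the mean log2 CPM of 20 other forebrain projection neuron genes (rho 0.60, p 0.00011, adjusted p 0.00176), while r missed the threshold (r 0.42, p 0.00712, adjusted p 0.0581, and 0.59 without the 2 farthest libraries), with rho 0.78 within 1 month and 0.36 within 24 hours, where the adjusted p was 0.452. Without libraries 1573, 1574 and 1582 this relation had rho 0.76 (permutation adjusted p 0.00016) and r 0.69 (permutation adjusted p 0.00032). With the mean log2 CPM of the 9 genes in place of their summed level, rho was 0.76 and r 0.70 over the 39 libraries. None of the other 15 measures passed an adjusted p of 0.05 over 39 libraries. Nearest to it were the striatal interneuron genes (rho 0.41, p 0.0110, adjusted p 0.0878, and r 0.28, p 0.0807, adjusted p 0.1997, r 0.38 without the 2 libraries). The number of genes with a count had r -0.42 (p 0.00781, adjusted p 0.0581) and rho -0.31 (p 0.0567, adjusted p 0.181), and r was -0.17 without the 2 libraries. The vesicular glutamate and zinc handling genes had r -0.40 (p 0.0109, adjusted p 0.0581) and rho -0.32 (p 0.0443, adjusted p 0.177), and r was -0.26 without the 2 libraries. Total counts had rho -0.08 (p 0.621, adjusted p 0.826) and r -0.05 (p 0.762, adjusted p 0.868, r -0.10 without the 2 libraries). D1 medium spiny neuron genes had rho -0.06 (p 0.707, adjusted p 0.826) and r -0.04 (p 0.814, adjusted p 0.868, r -0.05 without the 2 libraries). Of 12865 genes compared over the 39 libraries, those whose level was most like the summed level included 3110035E14Rik (rho 0.82), Cnr1 (0.74), Scube1 (0.72), Cck (0.70), Ctgf (0.70), Cplx3 (0.68), Nrg3 (0.66), Nfix (0.64) and Nov (0.61). Ctgf and Nov are also on the list of forebrain projection neuron genes, and Cck is on the list of striatal interneuron genes. These values share library and depth and are a description.

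Whether cocaine intake moved these genes was asked within each time point with edgeR's quasi-likelihood test on 14137 genes at 24 hours and 14181 at 1 month, with Benjamini-Hochberg adjustment over all of them. Emx1 was too low to be tested, and at 1 month Slc30a3 as well, which left 8 and 7 genes. None of these was called at an adjusted p of 0.05 in any comparison, against 0% of all genes. Limma voom called none either, and DESeq2 called Slc30a3 in both escalating comparisons at 24 hours, where the escalating group is at 0. At 24 hours the log2 fold change of Slc17a7 in escalating against saline libraries was -2.65 ± 1.51 (SE, edgeR p 0.0950, adjusted p 0.956). Without saline library 1574, the highest, it was -1.43. For Neurod2 the value was -5.94 ± 2.50 (edgeR p 0.0284, adjusted p 0.955), and without library 1574 it was -3.69 ± 2.19. Tbr1 had -1.63 ± 1.33 (edgeR adjusted p 0.992), Rorb -0.97 ± 0.85 and Cux2 -0.51 ± 0.69. Neurod6 had -1.27 ± 1.82, and Slc17a6 alone lay above 0, at 0.26 ± 1.42. The Tbr1 value was -3.88 ± 1.52 without escalating library 1588 and -0.79 ± 1.36 without saline library 1574, and the Rorb value was -0.39 without saline library 1573. An unadjusted edgeR p under 0.05 was reached by 2 of 8 genes, Neurod2 and Slc30a3, both lower, against 5.16% of all genes tested. Leaving out 1 library moved that count to between 0 and 3, and it was 0 without saline library 1574, where Neurod2 had an edgeR p of 0.109 and Slc30a3 was too low to be tested. Slc30a3 was at 0 in all escalating libraries and had 211 counts in the saline ones, at least 63.6-fold lower when the escalating group is set at 3 counts. The saline library 1574 gave 201 of those counts, and without it the bound was 3.40-fold. Slc30a3 passed the count filter at 24 hours only through saline and nonescalating libraries. Its p against the escalating group was thus partly set by the filter.

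Against nonescalating libraries at 24 hours, escalating libraries had Slc17a7 at -2.55 ± 1.44 (edgeR p 0.0931, adjusted p 0.9998) and Neurod2 at -7.11 ± 2.58 (edgeR p 0.0129, adjusted p 0.9998). Without library 1582 the Neurod2 value was -4.48, on the log2 scale. All 8 genes had values below 0, with a median of -2.002 beside -0.03 over all genes. The count and the median include Slc30a3, whose value could only be below 0, since it had no counts in the escalating libraries. Slc17a6 lay at -0.12 ± 1.30 and Cux2 at -0.11 ± 0.63. An unadjusted p under 0.05 was reached by 2 of 8, Neurod2 and Slc30a3, against 3.15% of all genes. That count lay between 1 and 3 when 1 library was left out. The Slc30a3 p carries the same limit here, since the filter was passed only through saline and nonescalating libraries. Slc30a3 had 176 counts in the nonescalating libraries, so the escalating group was at least 26.6-fold lower on the same floor. Both comparisons share the escalating libraries. Nonescalating against saline at 24 hours gave no gene of the 8 with an unadjusted p under 0.05, against 9.97% of all genes, with Slc17a7 at -0.10 ± 1.20 and a median of -0.13.

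Markers of other cells were read in the same comparisons. In escalating against saline at 24 hours the 7 tested striatal interneuron genes had a median log2 fold change of -2.07 with 0 of 7 above 0, and the 10 oligodendrocyte genes -2.19 with 0 of 10 above 0. Without saline library 1573 these medians were -1.35 with 0 of 7 above 0 and -0.76 with 3 of 10 above 0. Summed interneuron genes lay between 57.9 and 390.04 CPM in saline and between 27.2 and 80.0 CPM in escalating libraries, and none of the 10 was at 0 throughout either group. Summed oligodendrocyte genes lay between 96.4 and 1638 CPM in saline, the highest in library 1573, and between 114 and 236 CPM in escalating libraries, with none of the 10 at 0 throughout. Their mean log2 CPM was 5.76 in saline library 1573, 3.62 in 1574 and at most 1.79 in the other saline libraries. The medians of the summed level in saline and escalating libraries were 102 and 48.8 CPM for interneuron genes. For oligodendrocyte genes they were 161 and 142 CPM, close to each other. The 7 D1 medium spiny neuron genes had a median of 0.05. Median summed CPM in saline and escalating libraries was 584 and 257 for astrocyte genes and 54.6 and 36.1 for oligodendrocyte precursor genes. It was 710 and 524 for D2 and 7272 and 6999 for all medium spiny neuron genes. Of all genes tested in this comparison, 200 were higher and 529 lower at an unadjusted edgeR p under 0.05. In escalating against nonescalating libraries the 10 vascular genes had a median of 1.29 with 10 of 10 above 0, and the 7 interneuron genes -0.88 with 0 of 7 above 0. Without escalating library 1589 the vascular median was 0.61 with 7 of 10 above 0. Of all genes tested against nonescalating libraries, 334 were higher and 112 lower at an unadjusted edgeR p under 0.05. The part of these differences in the values of the 9 genes was not tested.

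**Figure D4:**
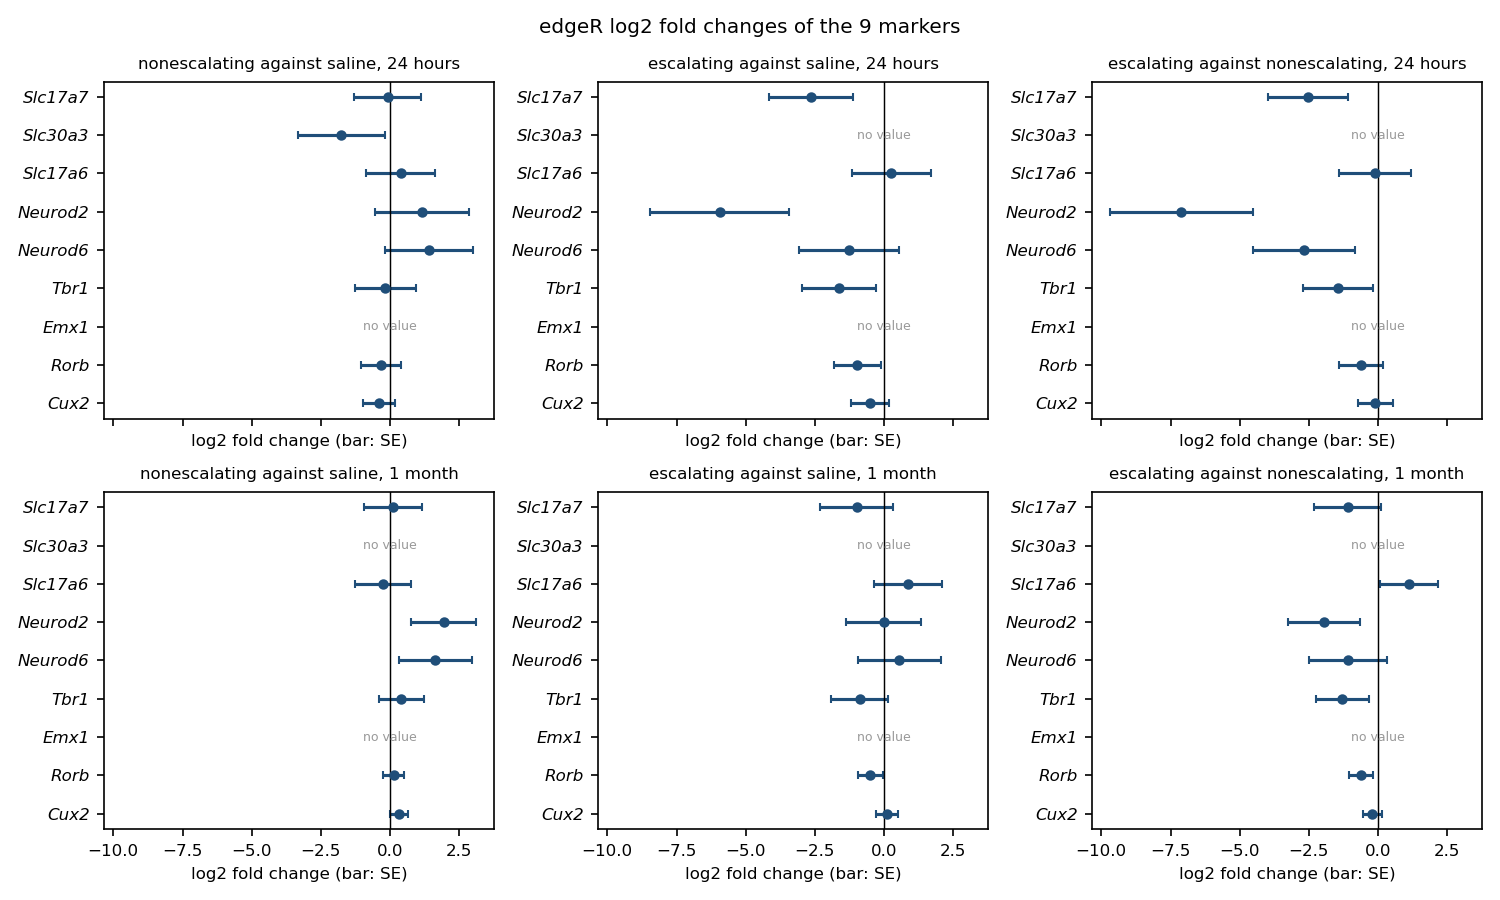
Log2 fold changes of the 9 genes in the 6 comparisons within a time point, as points with bars of 1 SE from edgeR. Genes that were not tested or had a group with 0 counts carry no value. At 24 hours Neurod2 lies at -5.94 and -7.11 in the escalating comparisons, with the widest bars.

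At 1 month the ranges of the 3 groups overlapped for each of the 9 genes. Nonescalating against saline gave Slc17a7 0.10 ± 1.05 and Neurod2 1.93 ± 1.18 (edgeR adjusted p 0.986), with a median of 0.31 over 7 genes. Escalating against saline gave Slc17a7 -0.99 ± 1.32, Tbr1 -0.89 ± 1.02 and Neurod2 -0.02 ± 1.34. Escalating against nonescalating gave Slc17a7 -1.10 ± 1.21, Neurod2 -1.95 ± 1.31, Tbr1 -1.29 ± 0.95 and Rorb -0.62 ± 0.42, with Slc17a6 alone above 0 at 1.11 ± 1.06. No gene of the 7 had an unadjusted edgeR p under 0.05 in these 3 comparisons, against 4.53%, 4.36% and 2.31% of all genes. Single escalating libraries moved the last comparison. Without library 1607 the count was 2, with Neurod2 at -4.44 ± 1.67 (edgeR p 0.0138, adjusted p 0.9999) and Rorb at -1.03 ± 0.47 (edgeR p 0.0356), and Slc17a7 was at -2.10, against -0.69 without library 1609. Without library 1606 the count was 1, with Tbr1 at -2.69 ± 1.15 (edgeR p 0.0267). In nonescalating against saline the count was 1 without saline library 1590. Emx1 had 46 counts in the saline and 0 in the escalating 1-month libraries, at least 5.14-fold lower on the floor of 3 counts for the group. Saline library 1594, the deepest of all, gave 38 of the 46 counts, and without it the bound was 1.58-fold.

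The 2 time points were compared in a fit of all 39 libraries over 15579 genes. None of the 8 tested genes passed an adjusted p of 0.05 in saline, nonescalating or escalating libraries, against 0% of all genes. Their median log2 fold change from 24 hours to 1 month was -0.79 in saline, -0.58 in nonescalating and 0.94 in escalating libraries. The medians include Slc30a3, which was at 0 in the escalating 24-hour libraries. Escalating libraries held 8.23 M to 11.1 M gene counts at 24 hours and 5.75 M to 6.96 M at 1 month. Time cannot be told apart from a sequencing run that followed it. Slc30a3 had 211 counts in saline libraries at 24 hours and 1 count at 1 month (edgeR p 0.00224, adjusted p 0.151), the only one of the 8 with an unadjusted p under 0.05 in saline, against 13% of all genes. Without library 1574, which holds 201 of the 211 counts, its log2 fold change was -2.84 ± 1.83 (edgeR p 0.128) and none of the 8 had such a p. Neither cocaine group had any, against 4.64% and 1.72%, and 1 of 8 in 11 and 7 of the 39 fits that left out 1 library. The change of a treatment difference between the time points was not called for any of them. For Neurod2 the escalating against saline difference at 1 month was above that at 24 hours by 5.90 ± 2.81 on the log2 scale (edgeR p 0.0434, adjusted p 0.998). Slc30a3 also had an unadjusted p under 0.05 there, which made 2 of 8 genes against 4.94% of all. Slc30a3 is at 0 in the escalating 24-hour libraries and passed the count filter only through other groups. Its p was thus partly set by the filter. The Neurod2 value was 3.66 ± 2.67 (edgeR p 0.179) without saline library 1574 and 3.44 ± 3.20 (edgeR p 0.290) without escalating library 1607. For escalating against nonescalating the same 2 of 8 genes had an unadjusted p under 0.05, against 2.3% of all, with the same limit for Slc30a3. Neurod2 was at 5.15 ± 2.52 (edgeR p 0.0492, adjusted p 0.9998). That value was 2.53 ± 2.18 (edgeR p 0.253) without nonescalating library 1582 and 2.66 ± 2.98 (edgeR p 0.378) without escalating library 1607. In 22 of 39 fits that left out 1 library fewer than 2 genes had such a p, and without library 1606, which holds all 7 escalating 1-month counts of Slc30a3, none did. For nonescalating against saline 1 of 8 did so, Slc30a3, against 9.8% of all, and none did without library 1574 (edgeR p 0.689) or in 5 other such fits.

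Other forebrain projection neuron genes gave no call either. Of 20 on the list, 15 were tested at 24 hours and 16 at 1 month, and 0 passed an adjusted p of 0.05 in edgeR. In escalating against saline at 24 hours their median log2 fold change was -0.52 with 3 of 15 above 0. The smallest p-value there was that of Nrn1 (-5.97 ± 1.92, edgeR p 0.00441, adjusted p 0.953). Neurog2, a factor of progenitors, was at 0 in all 39 libraries, and Eomes, of intermediate progenitors, was counted in 3. Both were singled out after their values were seen.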

How the data were processed

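Ribosome-bound RNA pulled down from the accumbens nucleus was sequenced in 40 libraries. The deposited values are raw counts of reads per gene symbol. The submitters' processing notes name STAR 2.0.0e, HTSeq and mm10, with counter version, annotation and strandedness not given in the sources used here. The 5 summary lines of each file named no gene and stayed out of totals. Tests used edgeR 4.0.16 in R 4.3.3 (filterByExpr with a minimum count of 10, TMM scaling, robust quasi-likelihood F test, two-sided, Benjamini-Hochberg over all genes tested), with each SE derived from the log2 fold change and its F statistic. The 20 libraries at 24 hours and the 19 at 1 month were fitted separately, and all 39 for changes over time. Log2 CPM for relations used a prior count of 2, and a group at 0 was set at 3 counts for bounds. These floors cover counting error only. The 122 same-group pairs differed by a chi-square per gene of 12.8 to 309, so none looks like the same library counted again. Separate pulldowns from the same animal would not be seen this way, and pairs across groups were not compared. Coordinates came from GENCODE vM21 (GRCm38) by symbol and promoter sequences from RefSeq (GRCm38.p6). Alternatives were DESeq2 1.42.0, limma voom 3.58.1, another scaling, no filter, a replicate block, and libraries left out or kept. All 9 genes are named whatever their values, with Drd1, the 10 genes most like their summed level and the 2 with the smallest p of a companion list, except for an item that is not reported here. The genes and lists were chosen with earlier results of these data known, and the pairs of 7 genes, the bounds and the marker lists of other cells with 1 library left out after seeing the data.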

Additional observations from a re-analysis of the deposited data

Results flagged for a closer look

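Dixon's 95% value was applied to 57 sets of values (a gene or the summed level in a group of 4 to 10 libraries). A library's gap to its nearest neighbour passed it in 11. The chance rate of about 1 in 20 holds for continuous values and does not apply to sets with most libraries at 0. Where only 1 library of a group had a count, the flag was certain, as for Emx1 in 1571 and Slc30a3 in 1592 and 1606. In saline libraries at 1 month, 1592 was low for Neurod2 (0 CPM) and for Tbr1 (0 CPM) and was the only one with Slc30a3, at 0.0846 CPM. In saline libraries at 24 hours, 1574 was low for Cux2 (0.324 CPM) and high for Slc30a3 (32.6 CPM), 1575 was low for Rorb (0 CPM) and 1571 was the only one with Emx1 (0.281 CPM). Emx1 was high in nonescalating library 1580 at 24 hours (1.24 CPM) and in nonescalating library 1604 at 1 month (0.217 CPM). In escalating libraries at 1 month, 1606 was high for Cux2 (36.1 CPM) and the only one with Slc30a3 (0.972 CPM). The Emx1 and Slc30a3 values rest on few reads, and their causes were not tested.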

How the results depend on the processing

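No edgeR or voom setting, and no fit that left out 1 library, called any of the 9 genes. DESeq2 called 1 gene, Slc30a3, where edgeR called 0, in 6 comparisons: escalating against saline and against nonescalating at 24 hours, saline and escalating libraries over time, and the change over time of escalating against saline and against nonescalating. In 5 of these 6 a group compared was the escalating 24-hour group, which is at 0. DESeq2 gave no p for Neurod2 at 24 hours. Over all genes, nonescalating against saline at 24 hours had 0 calls in edgeR, 164 in DESeq2 and 129 with all 39 libraries in one edgeR fit, and DESeq2 called 8 and 3 genes in the escalating comparisons. DESeq2 called 8, 0 and 0 genes at 1 month, 583, 3 and 6 over time in saline, nonescalating and escalating libraries, and 109, 10 and 6 for changes of differences, each against 0 in edgeR. The replicate block called 0 of these genes, with 4 unadjusted p-values under 0.05 against 10 without it. Same-numbered libraries of different groups correlated at -0.166 to 0.192 at 24 hours and -0.0958 to 0.294 at 1 month, with group means removed. Differently numbered ones correlated at -0.242 to 0.276 and -0.273 to 0.218. Whether the numbers pair libraries cannot be told from these overlapping ranges.

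Over all comparisons, 45 of 93 log2 fold changes changed sign in at least 1 setting, 152 of 3387 refits. Within a time point 17 of 45 did so. For nonescalating against saline at 24 hours, leaving out the 3 libraries that stand apart gave Slc17a7 0.91, Tbr1 0.49, Rorb 0.45 and Slc30a3 3.02. The replicate block gave Neurod2 -0.33, Rorb 0.035 and Slc30a3 0.16, voom gave Rorb 1.02 and Cux2 0.26, and DESeq2 gave Neurod2 -1.71. In escalating against saline voom gave Rorb 0.35. In escalating against nonescalating Cux2 was 0.0096 with the replicate block and 0.088 without the 3 libraries. At 1 month, nonescalating against saline gave Slc17a7 -1.68, Slc17a6 1.04 and Rorb -0.18 with voom, and Slc17a6 0.27 with the replicate block. Leaving out 1 library at a time gave, for nonescalating against saline at 24 hours, Slc17a7 -0.46 to 1.11, Slc17a6 -0.19 to 0.96, Neurod2 -1.46 to 3.401, Tbr1 -0.78 to 0.65, Rorb -0.61 to 0.23 and Cux2 -0.66 to 0.040. It gave Slc17a6 -0.92 to 0.84 for escalating against saline, and Slc17a6 -1.30 to 0.45 and Cux2 -0.46 to 0.13 for escalating against nonescalating. At 1 month it gave Slc17a7 -0.17 to 0.44, Slc17a6 -0.77 to 0.73 and Rorb -0.044 to 0.38 for nonescalating against saline, and Neurod2 -2.52 to 0.39, Neurod6 -0.49 to 2.55 and Cux2 -0.10 to 0.21 for escalating against saline. The causes were not tested.

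Among relations, the other forebrain genes followed the summed level at rho 0.361 within 24 hours, striatal interneuron genes at 0.453 without the 3 libraries (past the threshold), Slc17a7 and Rorb at 0.539 and Tbr1 and Rorb at 0.460 within 1 month. All 108 group levels recomputed with other scaling moved by less than the spread between libraries. Emx1 and Slc30a3 had few reads in most libraries, so their values rest on the few libraries that hold most of their counts.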
